A study of Drosophila melanogaster with 2 samples.

Results

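Peaks of an NFAT-eGFP fusion protein were examined at 10 Drosophila melanogaster genes that move sodium, potassium and protons across membranes: Atpalpha, nrv1, nrv2, nrv3, Irk1, Irk2, Nhe1, Nhe2, Nhe3 and Nha1. The genes were chosen by name, and all 10 were found among the 13968 protein-coding genes on the chromosome arms. A peak was counted for a gene when its summit, the position of highest signal, lay in the gene body or within 5 kb of it. The peaks come from ChIP-seq, which sequences the DNA recovered with a protein, on whole embryos aged 0 to 24 h. The embryos came from transgenic flies of the strain NFAT-GFP, and chromatin sheared by sonication was precipitated with an anti-GFP antibody. There were 2 samples, labelled as biological replicates 1 and 2 of a single group, so no second genotype, treatment or stage was compared, and whole embryos mix all cell types. The sources used here do not give the promoter that drives the fusion. No control precipitation was analysed here.

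The sodium pump is an ATPase that exports sodium and imports potassium, and it needs a catalytic alpha and a glycoprotein beta subunit. The gradients it builds drive nerve signalling and the transport of other ions, through inward rectifier potassium channels and sodium/proton exchangers among others. In fly epithelia the pump subunits encoded by Atpalpha and nrv2 also belong to the septate junctions that seal the paracellular space. NFAT is the fly member of a family of Rel-domain transcription factors, whose binding sites share the core GGAAA. The vertebrate relative NFAT5 responds to osmotic stress, and the fly gene has been linked to salt tolerance.

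The sequences at the strongest summit nearest to a start site of Atpalpha, nrv1, nrv2, Irk1, Nhe3 and Nha1 are shown to let the summits be read for that core. A further Atpalpha summit is shown because it held the core, and the last entry is the longer NFAT site at the first Atpalpha start. Each is on the gene's own strand of dm6, 5′ to 3′, and reaches 50 bp either side of the summit except the last. Capitals mark every match to the motifs searched below, and in these entries the NFAT core is present only in the Atpalpha intron and in the last one.
Atpalpha, 555 bp upstream of the first start site, chr3R:20948109-20948209, plus strand: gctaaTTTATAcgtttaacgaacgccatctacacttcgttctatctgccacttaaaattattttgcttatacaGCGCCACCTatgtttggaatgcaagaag
Atpalpha, intron, 567 bp upstream of the internal start site, chr3R:20957117-20957217, plus strand: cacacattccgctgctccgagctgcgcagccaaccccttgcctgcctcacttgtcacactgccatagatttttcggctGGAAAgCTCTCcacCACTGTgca
nrv1, 795 bp upstream, chr2L:6787606-6787706, minus strand: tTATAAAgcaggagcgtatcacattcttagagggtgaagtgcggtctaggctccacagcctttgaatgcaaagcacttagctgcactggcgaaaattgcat
nrv2, intron, 553 bp downstream of a start site, chr2L:6797591-6797691, minus strand: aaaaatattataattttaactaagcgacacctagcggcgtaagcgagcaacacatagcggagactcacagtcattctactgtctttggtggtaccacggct
Irk1, 354 bp upstream of an internal start site, chr3R:23173469-23173569, plus strand: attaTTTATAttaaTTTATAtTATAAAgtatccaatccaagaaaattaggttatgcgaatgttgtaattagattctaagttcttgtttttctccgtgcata
Nhe3, 64 bp upstream, chr2L:6684378-6684478, minus strand: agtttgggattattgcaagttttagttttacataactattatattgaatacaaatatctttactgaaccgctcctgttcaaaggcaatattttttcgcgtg
Nha1, intron, 7330 bp downstream, chr2L:6863009-6863109, minus strand: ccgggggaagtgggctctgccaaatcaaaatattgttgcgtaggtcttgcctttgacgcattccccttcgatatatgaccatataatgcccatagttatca
Atpalpha, longer NFAT site at the first start, chr3R:20948752-20948780, plus strand: gaattgtgtaAATTTTCCAcatccctggg

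Thresholded peaks are those that pass a limit on the irreproducible discovery rate (IDR), a measure of how poorly a peak's rank repeats. The larger list of both replicates together held 4899 of them on the arms. Of these, 39.8% overlapped a thresholded peak of each replicate and 22.3% one of neither. Being in the larger list therefore does not mean that a peak passed in both replicates. Of the 10 genes, 7 had at least 1 peak of the larger list: Atpalpha, nrv1, nrv2, Irk1, Nhe2, Nhe3 and Nha1. Over all protein-coding genes the share was 52.5%, and among the 5015 genes with a body as long as the members' (2771 to 29688 bp) it was 61.7%. The members' count is therefore near that of other genes of their length. The 7 genes shared 16 distinct peaks, since the 2 summits between nrv1 and nrv2 lay in both windows. These 16 gave 7.18 peaks per 100 kb of the members' windows, against 4.18 per 100 kb of all protein-coding gene windows. The densities were not matched for gene length. Of the 16, 8 had another thresholded summit within 600 bp, against 15.1% of all thresholded peaks, and 4 were nearest to another gene's start site. Ranked peaks, most of which do not pass the IDR limit, were less dense at the members. They numbered 76.8 per 100 kb at the members against 102.4 over all protein-coding genes. By gene they ran from 0 at nrv3 and 1.76 per 10 kb at Nhe2 to 14.7 at nrv2. The median of all protein-coding genes was 12.6, and nrv2, Irk1, Irk2 and Nha1 were above it while the other members were below. No thresholded peak was listed at nrv3, Irk2 or Nhe1.

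The conservative list had a summit at 5 of the 10 genes (46.4% of all protein-coding genes), the replicate 1 list at 5 (33.1%) and the replicate 2 list at 6 (47.5%). With the replicate 1 list alone, the peaks at the members numbered 5 in place of 16, and with the replicate 2 list alone 13. The replicate 1 list was also the shorter one, with 2236 peaks on the arms against 3994 for replicate 2. How deeply each replicate was sequenced is unknown, because the lists do not state how many reads they rest on. Each signal is the authors' own value for a peak, on a scale that is not stated, and serves here to order peaks inside the list it comes from. Over the 4628 thresholded peaks with a match in both replicates, the median ratio of replicate 2 to replicate 1 signal was 1.53. At 15 member peaks that median was 1.60, so a higher value in replicate 2 is not particular to a gene.

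**Figure D1:**
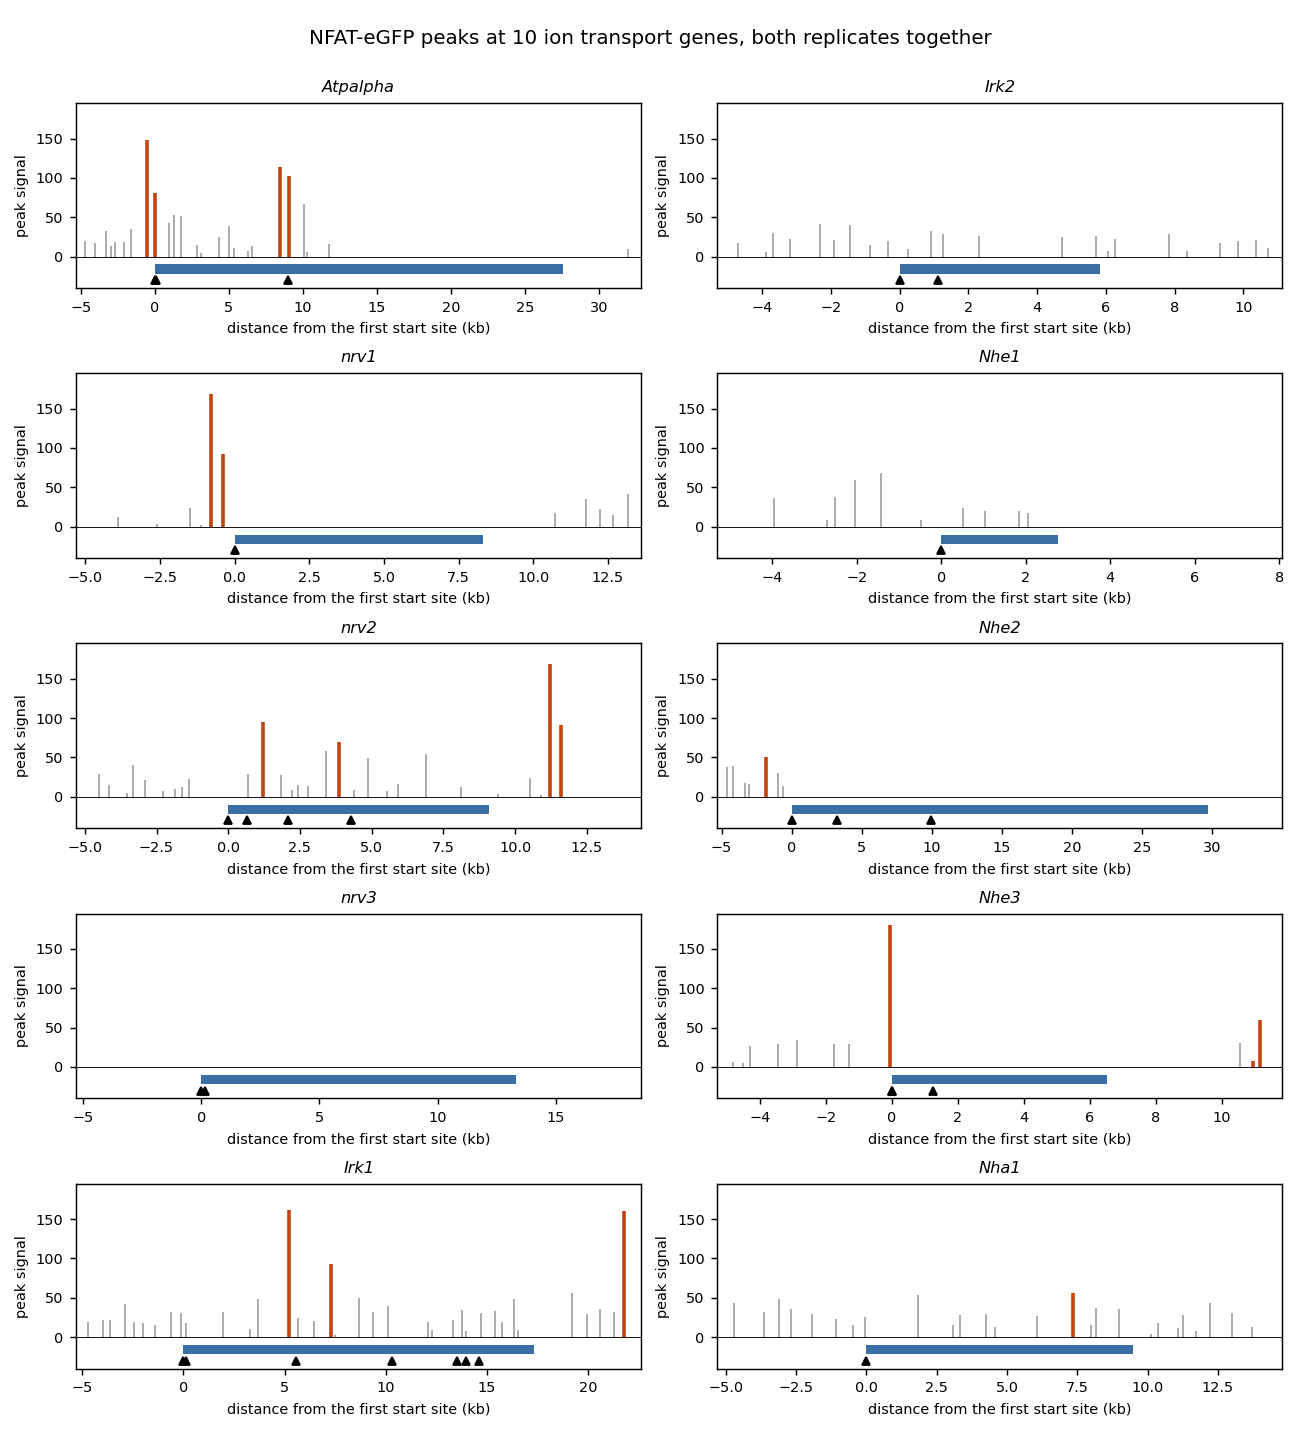
Ranked peaks (grey) and thresholded peaks of the larger list (orange-red) in the body of each gene and 5 kb either side, with signal on the vertical axis and distance in kb from the gene's most upstream start site, along its strand, on the horizontal axis. Blue bars are gene bodies and triangles annotated start sites. Atpalpha has a group of tall peaks at each of its start regions, and nrv3 has no peak of either kind.

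Atpalpha, which encodes the catalytic alpha subunit (FBgn0002921, 3R, 20948714 to 20976239, plus strand), had 4 thresholded peaks, and all 4 summits lay within 600 bp of one of its start sites. The strongest had a signal of 148, rank 1128 of 4899, and was intergenic, 555 bp upstream of the first start site (peak 20948017 to 20948300). A summit 22 bp downstream of the same start site had a signal of 81.0 (20948594 to 20948877). This peak was not in the conservative list, and its match in replicate 1 had rank 23175 of 108240 ranked peaks. At the internal start site, 1 summit lay 567 bp upstream, in an intron, with a signal of 114 (20957025 to 20957308). The other lay 24 bp downstream with a signal of 102 (20957616 to 20957899). The summits of each group were thus 577 and 591 bp apart, with nearly the same placement around both start regions.

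That placement was counted over all genes with limits set after the Atpalpha values were seen: 1 summit 500 to 600 bp upstream and 1 within 50 bp downstream of the same start site. It occurred at 14 of 13968 protein-coding genes, and at start sites at least 1000 bp apart in 1 of them, Atpalpha. Atpalpha met these limits by construction, and a gene with a single start site could not meet the second. Neither count therefore measures how rare the placement is. Of the 16 member peaks, 8 had another thresholded summit within 600 bp, against 15.1% of all thresholded peaks. Those 8 are 4 at Atpalpha, 2 at nrv1 and 2 at Spn27A, within the Nhe3 window, so they come from few loci.

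Replicate 2 listed all 4 Atpalpha peaks above its threshold and replicate 1 only the upstream one. In replicate 1 the matched ranked peaks had signals of 57.5 at the upstream summit, 18.01 at the first start, 36.2 at the intronic summit and 36.1 at the internal start. In replicate 2 the same peaks had signals of 92.3, 82.0, 89.1 and 70.9. The replicate 1 summits lay 14 bp from the series-level summit at the upstream peak, but 101, 50 and 148 bp from it at the other 3. The placement of the summits next to the start sites therefore rests on replicate 2 more than on replicate 1.

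**Figure D2:**
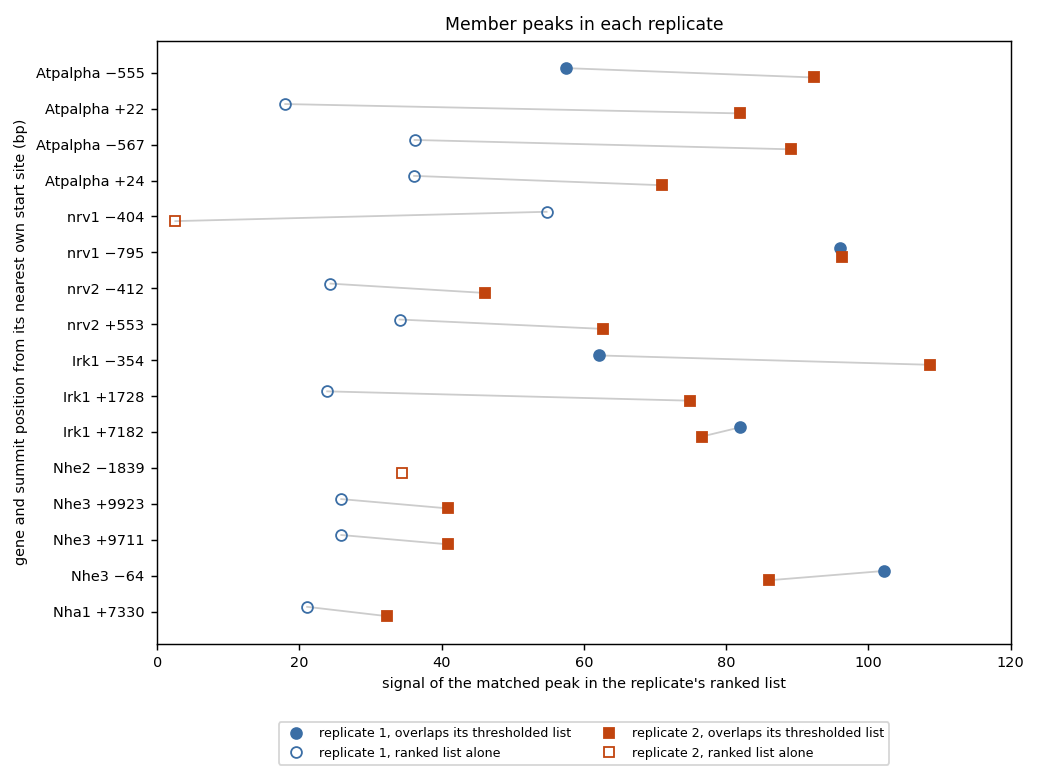
Signal of the ranked peak matched to each of the 16 member peaks in replicate 1 (blue circles) and replicate 2 (orange-red squares); filled symbols overlap that replicate's thresholded list. Each row is a peak, named by gene and by the summit's distance in bp from the gene's nearest own start site (minus, upstream), and a common scale of signal between the lists is not stated. The Nhe2 peak has no match in replicate 1, and the nrv1 peak at 404 bp sits at 2.55 in replicate 2.

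The beta subunits of the pump are encoded by the nervana genes, and they differed in their peaks. nrv1 (FBgn0015776, 2L, 6778555 to 6786861) and nrv2 (FBgn0015777, 2L, 6789770 to 6798862) are neighbours on the minus strand. Both had thresholded peaks, while nrv3 (FBgn0032946, 2L, 21380000 to 21393319, plus strand) had none. The strongest peak of the group was intergenic, upstream of nrv1 and past the end of nrv2 (6787585 to 6787732, signal 168, rank 911). Its summit was 795 bp upstream of the only nrv1 start site. It was 148 bp wide, while 14 of the 16 member peaks had the width of 284 bp that most peaks of the list share. Replicates 1 and 2 placed its summit at the same base. The signals were 96.0 and 96.2, with ranks of 498 and 1096 in the ranked lists of replicates 1 and 2.

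The other nrv1 peak (6787244 to 6787346, 103 bp wide, signal 91.8) had its summit 404 bp upstream of the start site and was carried by 1 replicate. Its match in replicate 1 had a signal of 54.8 and rank 1345 of 108240 ranked peaks. The nearest overlapping peak in replicate 2 had a signal of 2.55 and rank 111700 of 113128. It was in neither replicate's thresholded list and not in the conservative list. The body of nrv1 itself held no ranked summit of the series-level list.

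nrv2, whose product is a septate junction component as well as a pump subunit, had 2 further peaks within its own body. One was 553 bp downstream of a start site, in an intron (6797499 to 6797782, signal 95.7, rank 2329). The other lay 412 bp upstream of the most internal of its 4 start sites (6794869 to 6795152, signal 69.3, rank 3620). Replicate 1 had signals of 34.1 and 24.4 at these summits, below its threshold, and replicate 2 had 62.6 and 46.1, above its own. Of the nrv2 start sites, 1 of 4 had a summit within 500 bp. The conservative list held 1 peak in the nrv2 body that the larger list lacks (6791839 to 6792122, signal 54.9).

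nrv3 had no summit in its window in the ranked series-level list or in the ranked list of either replicate. The ranked series-level list holds 132548 peaks on the arms with a median signal of 21.7, against 91.8 in the larger thresholded list. Of all protein-coding genes, 94.8% had a summit of the ranked series-level list in the same window, and 9 of the 10 members did. The nearest ranked summits were 7.23 kb before and 23.8 kb after the gene, a gap of 44.3 kb. Of 132541 gaps between neighbouring ranked summits, 96 were at least as long. Each gap counts once there, and a long gap spans more of the arms than a short one. That count is therefore not the share of genes so placed. Annotated transposable elements covered 20.7% of the nrv3 window and 10.7% of its body. The 724 genes with no ranked peak had a median cover of 0%, a 75th percentile of 8.07% and a 95th percentile of 38.3%. The 13244 genes with a ranked peak also had a median of 0%, with a 75th percentile of 0% and a 95th of 12.5%, so cover as high as that of nrv3 was more frequent among genes without ranked peaks. At Irk2, which had ranked peaks, they covered 6.96% of the window and 18.9% of the body. Their part in the absence of peaks at nrv3 was not tested.

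Irk1, an inward rectifier potassium channel gene (FBgn0265042, 3R, 23168317 to 23185642, plus strand), had 3 thresholded peaks. The strongest (23173377 to 23173660, signal 162, rank 966) lay 354 bp upstream of an internal start site, 1 of the 7 of Irk1, which CG46310 shares. Replicates 1 and 2 both listed it above threshold, with signals of 62.1 and 109. An intronic peak 1728 bp downstream of the same start site (23175459 to 23175742, signal 92.9) had signals of 23.9 in replicate 1 and 74.97 in replicate 2, and passed the threshold in replicate 2 alone. The third (23189960 to 23190243, signal 160, rank 987) lay 4.46 kb past the end of Irk1 and 317 bp from a start site of cnc, which encodes the fly Nrf2 homologue. It can be counted for either gene. The most upstream Irk1 start site was 5202 bp from the nearest thresholded summit.

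Irk2, which encodes another inward rectifier channel (FBgn0039081, 3R, 23513617 to 23519445, minus strand), had no thresholded peak although ranked peaks were frequent there. Its window held 23 ranked summits, or 14.5 per 10 kb, with signals up to 40.9. The best −log10 global IDR among them was 1.25, against the value of 2 that an IDR of 0.01 corresponds to. The nearest thresholded summit was 6862 bp upstream of its first start site. The contrast between Irk1 and Irk2 was thus in peaks past the IDR limit, not in the density of ranked peaks. That density was 13.2 per 10 kb at Irk1, whose longer window held 36 ranked summits. The contrast was not tested.

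**Figure D3:**
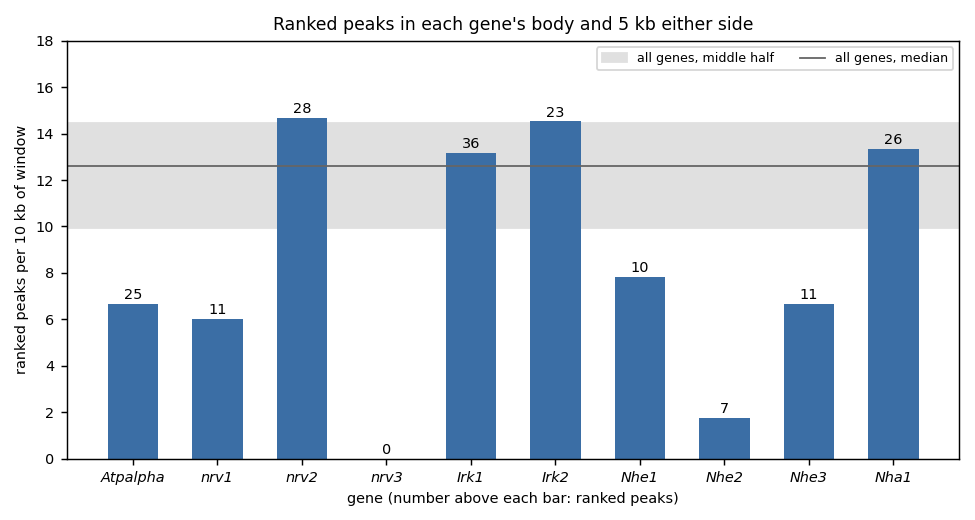
Ranked peaks of the series-level list per 10 kb of window (gene body and 5 kb either side) for each gene, with the number of peaks above each bar. The grey band holds the middle 50% of all protein-coding genes and the line their median, 12.6 per 10 kb; nrv3 is at 0 and Nhe2 at 1.76.

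The sodium/proton exchangers exchange sodium for protons and so set pH and volume. Of these, Nhe3 (FBgn0028703, 2L, 6677835 to 6684364, minus strand) had the strongest peak of all members. Its summit was 64 bp upstream of the first start site (6684286 to 6684569, signal 181, rank 808 of 4899). Replicate 1 gave it a signal of 102 and replicate 2 one of 86.1, and both listed it above threshold. The other 2 peaks in the Nhe3 window lay over 4 kb past its end, 141 and 71 bp from a start site of the serpin gene Spn27A. They overlap each other (6673064 to 6673347 and 6673276 to 6673559), with signals of 59.5 and 7.54, and the same replicate peaks matched both.

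Nhe2 (FBgn0040297, 2L, 21104568 to 21134255, plus strand) had 1 thresholded peak (21102587 to 21102870, signal 51.2, rank 4728 of 4899). It was 1839 bp upstream of Nhe2 and 14 bp from a start site of CG9257. It was in neither replicate's thresholded list and not in the conservative list, and replicate 1 had no ranked peak that overlapped it. Nhe1 (FBgn0026787, 2L, 103962 to 106732, minus strand) had 10 ranked peaks and none above threshold. The best of these in IDR had a −log10 global IDR of 1.65 and a signal of 59.5 (summit at 108768). Ranked signals in the Nhe1 window reached 13.4 in replicate 1 and 46.4 in replicate 2.

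Nha1, a gene of the sodium/proton antiporter family (FBgn0031865, 2L, 6860905 to 6870389, minus strand), had 1 thresholded peak. It lay in an intron 7330 bp downstream of the only Nha1 start site (6862917 to 6863200, signal 55.9, rank 4586). Its match in replicate 1 had a signal of 21.1 and missed the threshold, and that in replicate 2 had 32.3 and passed. The replicate 2 summit was 118 bp away. This peak was not in the conservative list. It was the member peak farthest from any start site of its own among those that lay in a gene body.

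At their own promoters, taken as 500 bp either side of a start site, 5 of the 10 genes had a summit: Atpalpha, nrv1, nrv2, Irk1 and Nhe3. The share was 23.4% over all protein-coding genes and 32.6% over genes as long as the members. Among the members' 27 annotated start sites, 8 had such a summit, and the share over all start sites was not counted. At Atpalpha 3 start sites shared 2 summits, and at Nhe3 2 shared 1. All 13968 protein-coding genes had 19276 start sites, fewer per gene than the members, and the shares of genes above do not allow for that. With the replicate 1 list alone the count of genes was 2 (Irk1 and Nhe3), and with the replicate 2 list alone 4. With a limit of 250 bp it was 2 (Atpalpha and Nhe3). By position, 10 of the 16 peaks lay within 500 bp of some protein-coding start site, against 56.2% of all thresholded peaks. The others were 4 intronic and 2 intergenic peaks. The start site nearest to the summit belonged to a member for 12 peaks and to cnc, CG9257 or Spn27A for 4.

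Member peaks were of middling strength for the list. Their median signal was 94.3, against 91.8 for all 4899 peaks, and 9 of the 16 were above that median. A q-value of 0.05 or less was given to 10 of the 16, against 56.1% of all thresholded peaks. Of the 16, 14 overlapped a thresholded peak of replicate 2, 5 one of replicate 1, 5 both and 2 neither. Over all thresholded peaks these shares were 73.3%, 44.2%, 39.8% and 22.3%. The 5 found in both replicates were the upstream peaks of Atpalpha and nrv1, the Irk1 promoter peak, the peak at cnc and the Nhe3 promoter peak, and they are the 5 strongest of the 16. The series-level list was made from both replicates, so this overlap describes the lists and is not independent of them.

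**Figure D4:**
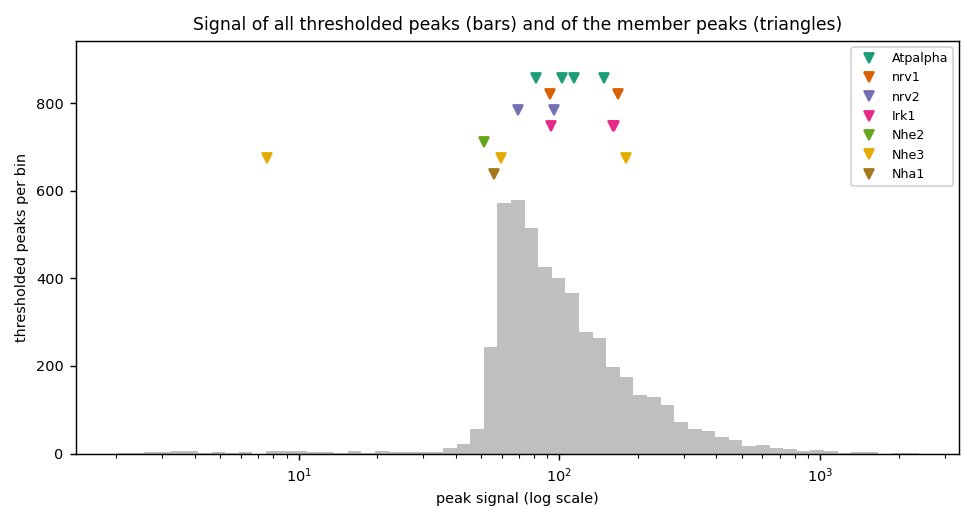
Signal of all 4899 thresholded peaks (grey bars, number of peaks per bin, log axis) and of the member peaks (triangles, placed above the bars by gene; a height has no value). Most member peaks lie between 51.2 and 181, in the body of the distribution, and 1 peak in the Nhe3 window is at 7.54.

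The NFAT core GGAAA, on either strand within 50 bp of the summit, was at 3 of the 16 member peaks, against 26.4% of all thresholded peaks. These were the Atpalpha start peak at 22 bp, the Atpalpha intronic peak and the Spn27A peak of 59.5 in the Nhe3 window. The cores lay 31, 30 and 48 bp from their summits, so none was within 25 bp, where 13.6% of all peaks have one. Within 100 bp 7 of the 16 had a core, against 45.4% of all peaks, and none of the 5 member peaks of the replicate 1 list had one within 50 bp. The Atpalpha core at the first start was part of the longer NFAT site (TGGAAANAT or TGGAAANTT), shown above on the opposite strand, which 2.14% of all peaks had. No core was within 50 bp of the strongest summits of nrv1, Irk1 and Nhe3, as their sequences show.

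Other motifs were searched on both strands in the same windows. GAGAG, part of the sites of GAGA factor, was at 6 of the 16 member peaks, against 14.1% of all thresholded peaks, and within 100 bp at 12 of the 16, against 28.2%. Within 50 bp it was at Atpalpha (2 peaks), nrv1, nrv2, Irk1 and Nhe2, the last 14 bp from a start site of CG9257. None of the 5 member peaks of the replicate 1 list had it there. Both member peaks in neither replicate list, at nrv1 and Nhe2, did. The TATA box letters TATAAA were at 3 peaks (11.6% of all), those upstream of Atpalpha and nrv1 and at the Irk1 promoter, where there were 3 matches. The Atpalpha start peak had the DNA replication-related element TATCGATA 6.5 bp from its summit (3.25% of all), and the peak upstream of it the CTCF-like core AGGTGGCGC at 27 bp (0.959% of all). ACAGTG was at 2 peaks (11.1% of all), in the Atpalpha intron and at Nhe2. The M1BP element GGTCACACT and the E-box CAGCTG were at none (1.31% and 6.35% of all). The longer NFAT site contains the core, so the same bases count for both, and a match of letters describes the sequence and does not show a site of binding.

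At other ion channel genes the strongest summit was often nearest to another gene's start site. This is not particular to them. Of the 7340 protein-coding genes with a thresholded summit in the window, 3281 had any that was nearest to a start site of their own. Of 19 further potassium channel genes, 11 had a thresholded summit in the window and 1 at its own promoter, against 52.5% and 23.4% of all protein-coding genes. The window count is near the general share and the promoter count is below it. The 3 strongest were at KCNQ (signal 491, 4795 bp from its nearest start site and nearest to that of mlt), sei (247, nearest to tsr) and Irk3 (232, nearest to Faf2), of which KCNQ encodes a voltage-gated channel and sei an ERG-type channel. Of 10 sodium channel and accessory subunit genes, 6 had a summit and 1 had it at its own promoter, against the same 52.5% and 23.4%, and 3 of the 6 rest on a single shared peak. They were led by NaCP60E (326, 124 bp from its own start site but nearer to that of RpL41), rpk (146, nearest to Karybeta3) and a single peak of 65.7 nearest to VhaM9.7-c that tipE, Teh2 and Teh3 share. No thresholded summit of the larger list was at para, the main voltage-gated sodium channel gene.

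Of 11 further exchanger and cotransporter genes, 5 had a summit, 3 of them with one at their own promoter, and both counts are near the shares of all protein-coding genes, 52.5% and 23.4%. CG10413 had the strongest (402, 106 bp from its start site), followed by NKCC (174, nearest to CG31550) and Calx (141, nearest to Rlip), the sodium/calcium exchanger gene next to Atpalpha. Nha2, kcc and zyd had none. Of the 4 matched relatives of the pump subunits, 2 had a summit and 0 had one at their own promoter, against 52.5% and 23.4%. The summit was that of the same peak (108, nearest to vib) at CG11703 and CG5250.

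The septate junction genes, whose products are partners of those of Atpalpha and nrv2 in epithelia, were counted in the same way. Of 22 genes, 13 had a summit in the window, near the 52.5% of all protein-coding genes, and 9 had one at their own promoter, against 23.4%. The strongest were at bark (275, 730 bp from its own start site), vari (257, nearest to Pomp) and dlg1 (200.4, 431 bp from its own start site). Smaller ones lay 38, 31 and 30 bp from the start sites of Lac, pck and cora. Nrx-IV, kune and l(2)gl had no summit of the larger list. These lists are described by their counts alone, and no difference between them and other genes was tested. The shares of all protein-coding genes set beside them were not matched for gene length.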

How the data were processed

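NFAT-eGFP ChIP-seq peaks of 2 biological replicates were used, on dm6 per the labels. The authors deposited narrowPeak lists for each replicate and for both together. The aligner and the peak caller are not given in the sources used. Column 7 of the deposited lists is a signal, column 9 the −log10 of a q-value, column 10 the summit offset, and column 12 of the ranked lists the −log10 of a global IDR. A second series-level ranked list and the text descriptions were not used. Peaks off the arms were left out (25 of the larger list).

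Genes, start sites and exons came from Ensembl release 115 (BDGP6.54), and sequence from the Release 6 assembly of RefSeq; all peak ends lay within its arm lengths. Peaks were matched between lists by an overlap of at least 1 bp, taking the nearest summit. Promoters were 500 bp either side of a start site and motif windows 101 bp. Each peak took the class promoter, then exon, intron or intergenic. The members, gene lists and motifs were chosen with earlier results of these data known, so no test was run on them: counts are set beside the same counts over all genes or peaks. The text names all 10 members, the gene nearest to each member peak, and the 3 genes with the strongest peak of each other list; para, Nha2, kcc, zyd, Lac, pck, cora, Nrx-IV, kune and l(2)gl were named after their values were seen. Of the pump relatives 3 of 7 symbols were not matched. Counting was tested on simulated summits. Alternatives changed the list, window, overlap and promoter limit. Python 3.11.15, NumPy 2.4.6, pandas 2.3.3 and matplotlib 3.10.9 were used.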

Additional observations from a re-analysis of the deposited data

How the results depend on the processing

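The members with a thresholded peak numbered 7, and from 4 to 9 under the alternatives (4 with gene bodies alone, 9 with 10 kb either side). Over all protein-coding genes the share was 52.5%, with 13.9% for gene bodies alone and 66.1% for 10 kb either side. In the main count the peaks at the members numbered 16 and the protein-coding genes with a peak 7340. Gene bodies alone gave 8 peaks, 1942 genes and the same strongest peak at 2 of the 7 members. The stronger 50% of peaks gave 9 peaks, 3 members with a promoter peak in place of 5, and 1 peak with the NFAT core in place of 3. Summits given only to the nearest start site left 3281 genes. A promoter limit of 250 bp left 2 members. The NFAT core was at 7 peaks within 100 bp and at 0 within 25 bp. Overlap with the ranked lists of the replicates, in place of thresholded ones, gave 15 peaks found in both in place of 5. With one replicate's list alone, the members with a peak ranged from 5 to 6, the peaks from 5 to 13, the genes from 4619 to 6640, the members with the same strongest peak from 4 to 6, those with a promoter peak from 2 to 4 and the peaks with the NFAT core from 0 to 3. The lists give no read totals, so what depth limits could not be set. No paired analysis was possible because there is 1 group. The cause of these changes was not tested, apart from the fewer peaks or shorter windows that an alternative holds by construction.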

Other observations

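In the series-level list, long stretches without ranked peaks lay over several of the genes. Of the 10 members, 4 (nrv1, nrv3, Nhe2 and Nhe3) had no ranked summit of the series-level list in the body, against 8.97% of 5015 genes as long as the members. At Nhe2 the stretch between neighbouring ranked summits was 36.0 kb, and 153 of 132541 such stretches were at least as long. A body of 29.7 kb without a summit can only lie in a stretch longer than itself, so that count does not measure rarity. Replicate 1 also had 0 ranked summits in the bodies of these 4 genes, and 11.3% of the 5015 genes had none in replicate 1. Replicate 2 had 8 in the body of nrv1, 7 in that of Nhe2, 7 in that of Nhe3 and 0 in that of nrv3. Only nrv3 was thus empty in both replicates. In replicate 2, 6.52% of the 5015 genes had none. Among the 5015 genes, 19 had 7 or more in replicate 2 and none in replicate 1 or the series-level list. That limit of 7 was the lowest count at nrv1, Nhe2 and Nhe3, which are therefore among the 19 by construction. The count of 19 thus does not measure how rare the pattern is. The cause was not tested. At Atpalpha the last ranked summit in the body lay 11.7 kb from the first start site of a body of 27.5 kb.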
